A study of Mus musculus with 9 samples.

Results

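A set of 32 genes of cholesterol and fatty acid synthesis was followed in mouse pancreatic islets under inflammatory cytokines. The 32 were picked by gene name from the 56748 genes of the deposited count table, and all 32 were found there and were read deeply enough to be tested. They fall into 6 roles: 6 enzymes of the mevalonate and isoprenoid steps, 11 enzymes that turn farnesyl diphosphate into squalene and then cholesterol, 5 regulators and transport genes, 3 enzymes that supply acetyl-CoA and NADPH, 3 enzymes that build fatty acid chains, and 4 desaturases. Whole islets of wild-type (wt) C57bl/6 mice, labelled as primary material, gave 9 libraries, 3 for each group. The control group had no treatment. The inflamed group had 48 h of IL-1beta, TNF-alfa and IL6. The particle group had the same 3 cytokines together with PD-G-MSNPs, the polydopamine-coated mesoporous silica nanoparticles of the study title. All groups share strain and genotype. None of the 9 libraries had particles without cytokines, so the particles were measured only on top of the cytokines. The sources used here do not say whether replicates were separate animals or islet preparations, so the p-values measure only the spread between these libraries, which may be technical.

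Cells make cholesterol and fatty acids from cytosolic acetyl-CoA. ATP citrate lyase and acetyl-CoA synthetase provide it, malic enzyme provides NADPH, the mevalonate pathway leads through squalene to cholesterol, and acetyl-CoA carboxylase and fatty acid synthase lead to palmitate, which is then elongated and desaturated. SREBP-2 (Srebf2) mainly drives the sterol genes and SREBP-1 (Srebf1) mainly the fatty acid genes. Their precursors are held in the endoplasmic reticulum by SCAP and INSIG proteins when sterols are plentiful and are cut free in the Golgi when sterols are scarce. In beta cells, glucose carbon that leaves mitochondria as citrate reaches this pathway through ATP citrate lyase.

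Because members under SREBP control carry short sequence elements near their start sites, the 250 bases upstream of each start were read from RefSeq (build GRCm38.p6), which gave windows for 25 of the 32 members. Fdps, Fdft1, Sqle, Stard4, Scd1, Scd2 and Fads1 had none. The windows below are written 5′ to 3′ on the gene's own strand and belong to the members that fell furthest at high expression (Acly, Fasn) or fell furthest among the sterol enzymes with more than a few counts (Tm7sf2), to members that rose (Hsd17b7, Me1), and to the one member with a match to the sterol element (Hmgcs1). Capitals mark matches, on either strand, to CCAAT and GGGCGG, and in Hmgcs1 also to the sterol element TCACNCCAC. A match on the other strand reads as the reverse complement, ATTGG for the first of these motifs.
Acly: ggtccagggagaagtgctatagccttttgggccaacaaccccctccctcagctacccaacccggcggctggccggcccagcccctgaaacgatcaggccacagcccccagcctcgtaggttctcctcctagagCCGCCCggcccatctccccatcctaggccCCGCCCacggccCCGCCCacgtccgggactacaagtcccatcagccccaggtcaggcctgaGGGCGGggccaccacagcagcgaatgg
Fasn: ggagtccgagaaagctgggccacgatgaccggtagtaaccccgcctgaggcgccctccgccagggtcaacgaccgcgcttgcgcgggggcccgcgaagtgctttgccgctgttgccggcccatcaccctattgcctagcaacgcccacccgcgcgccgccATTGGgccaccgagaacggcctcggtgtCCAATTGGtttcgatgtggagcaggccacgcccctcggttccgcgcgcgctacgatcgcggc
Tm7sf2: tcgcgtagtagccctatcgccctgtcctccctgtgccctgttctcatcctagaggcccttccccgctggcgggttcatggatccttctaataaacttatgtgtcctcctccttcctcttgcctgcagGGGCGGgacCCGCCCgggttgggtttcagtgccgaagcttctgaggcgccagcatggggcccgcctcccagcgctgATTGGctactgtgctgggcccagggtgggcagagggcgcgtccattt
Hsd17b7: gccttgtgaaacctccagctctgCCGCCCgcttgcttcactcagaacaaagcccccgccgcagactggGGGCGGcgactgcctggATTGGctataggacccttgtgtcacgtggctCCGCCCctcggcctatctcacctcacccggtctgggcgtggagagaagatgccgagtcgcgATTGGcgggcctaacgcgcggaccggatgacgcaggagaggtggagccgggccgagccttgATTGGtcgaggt
Me1: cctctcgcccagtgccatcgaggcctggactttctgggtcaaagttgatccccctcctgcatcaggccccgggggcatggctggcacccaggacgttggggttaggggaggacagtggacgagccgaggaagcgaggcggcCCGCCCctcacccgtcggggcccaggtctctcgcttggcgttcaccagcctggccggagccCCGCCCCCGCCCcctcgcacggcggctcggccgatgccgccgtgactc
Hmgcs1: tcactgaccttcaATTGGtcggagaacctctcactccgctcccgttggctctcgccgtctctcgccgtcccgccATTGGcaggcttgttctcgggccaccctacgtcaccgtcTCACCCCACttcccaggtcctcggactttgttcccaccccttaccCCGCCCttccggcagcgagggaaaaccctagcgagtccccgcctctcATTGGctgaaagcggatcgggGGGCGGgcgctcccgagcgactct

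The Acly window (chr11:100528001-100528250, minus strand) held 4 GGGCGG matches and 0 CCAAT matches. The Fasn window (chr11:120824548-120824797, minus strand) held 3 CCAAT matches, a pair of which overlap, and 0 GGGCGG matches. The Tm7sf2 window (chr19:6067851-6068100, minus strand) held 1 CCAAT and 2 GGGCGG matches, and the Hsd17b7 window (chr1:169969206-169969455, minus strand) held 3 of each. Me1 has 2 start sites in RefSeq, and the one farther upstream is shown (chr9:86695915-86696164, minus strand), with 3 GGGCGG and 0 CCAAT matches. The Hmgcs1 window (chr13:119690101-119690350, plus strand) held 3 CCAAT, 2 GGGCGG and 1 TCACNCCAC match. The bases just after its start were not found in a transcript of the gene in GENCODE, a separate annotation. For the other windows shown they were found, so the Hmgcs1 start is less certain. Counting any window of a gene, CCAAT was found in 20 of 25 members against 37.5% of all 27025 genes with a RefSeq window. GGGCGG was found in 21 of 25 members against 35.4% of these genes. The 27025 genes were neither limited to genes tested in islets nor matched to the members in base content. TCACNCCAC, a sterol element, was found in 1 of 25 members against 1.22% of genes, and ATCACGTGA in 0 of 25 against 0.326%. CCAAT and GGGCGG each occurred in members of either direction. Of the 8 members with a window that fell in inflamed islets, 6 held CCAAT and 6 held GGGCGG, and of the 3 that rose, 3 held each. A match is a string of letters in the window and no measurement of binding.

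Expression is given as CPM, counts scaled to a common library size with TMM factors, except where levels of different genes are compared, which uses the deposited FPKM (fragments per kilobase of gene). Total counts per library were 17832949 to 55865759. The labelled tissue carried its defining transcripts in all groups: 28.8 ± 0.350% (SD, n = 3) of control counts came from the insulin genes, and 17.7 ± 4.24% and 15.4 ± 6.56% did so in inflamed and particle islets. Other cell types were present at levels that differed between libraries. The summed CPM of 9 acinar markers was 3.22, 1349 and 146 in control replicates 1, 2 and 3, then 25.2, 34.0 and 2674 in inflamed and 5.32, 3200 and 226 in particle replicates, so that control replicate 2, inflamed replicate 3 and particle replicate 2 held the most exocrine RNA. In whole islets, fewer cells of a type and less RNA per cell cannot be told apart.

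In control islets the members spanned a wide range per length. Acly, ATP citrate lyase, stood first at 245 ± 99.3 FPKM (SD, n = 3), and its lowest control library (162 FPKM) lay above every library of the other 31 members. Srebf1 followed at 38.3 ± 4.07 FPKM. Srebf2 (24.6 ± 2.38), Pmvk (21.2 ± 2.77), Scap (19.7 ± 2.76), Sqle (18.9 ± 4.08) and Fasn (18.03 ± 2.24 FPKM) came next, with overlapping libraries between neighbours, so their order is not resolved. At the other end stood Hsd17b7 at 0.668 ± 0.0684, Scd1 at 0.326 ± 0.240, Idi1 at 0.321 ± 0.386 and Fdps at 0.249 ± 0.102 FPKM, the last 3 with overlapping libraries. Fdps and Idi1 code for widely used isoprenoid enzymes, and at these levels their changes were measured with little precision. Fdps overlaps Gm43738, a protein-coding gene on the same strand with 2 counts beside the 317 of Fdps. The level of Fdps is therefore uncertain where reads are shared, and how far the overlap lowered its count was not tested.

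Inflamed islets were compared with control islets to describe the difference with cytokines and without particles. No culture time is given here for control islets, so effects of cytokines and of time in culture cannot be told apart. Of the 32 members, 10 were lower and 3 were higher at an adjusted p under 0.05 (edgeR's quasi-likelihood test, Benjamini-Hochberg over all 17276 genes tested), and 19 passed in neither direction. Among all genes tested, 19.0% were called lower and 20.7% higher, against 31.25% and 9.375% of the members. The median log2 fold change of the members was -0.35, against 0.05 for all genes. Without control replicate 2 only 5 members were called lower, and 6 without control replicate 3, while only 1 was called higher without control replicate 1 or 3. The libraries of 13 members lay wholly below control and those of 4 wholly above, where 28.5% and 28.3% of all genes did so. Sorted by branch, 5 of the 10 genes of the acetyl-CoA, fatty acid and desaturation roles fell and 1 rose, with a median of -0.92, while 3 of the 17 enzymes from mevalonate to cholesterol fell and 2 rose, with a median of -0.00. The difference between these branches was described and not tested.

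**Figure D1:**
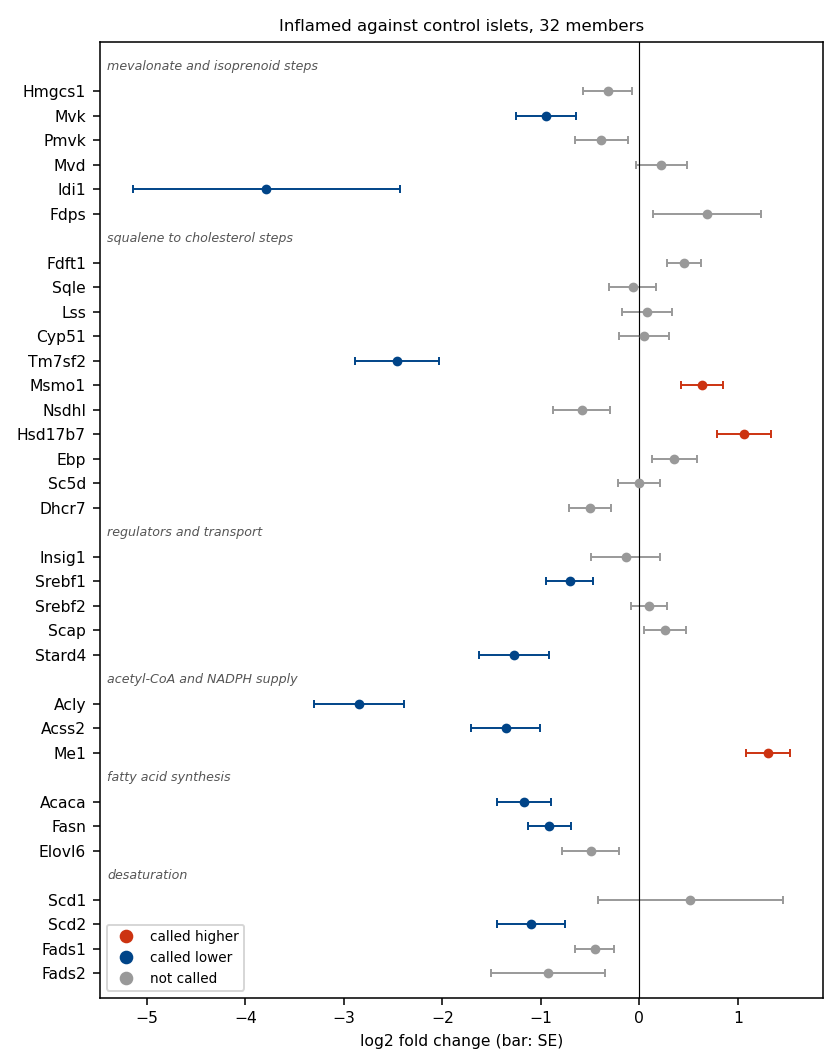
Fitted log2 fold change of each of the 32 members in inflamed against control islets (horizontal axis; bars are the SE of the fit, 3 libraries a group), sorted by role, with blue for members called lower, red for higher and grey for not called. Acly (-2.85) and Tm7sf2 (-2.46) stand far left, Idi1 (-3.79) has the longest bar, and Me1 (1.31) and Hsd17b7 (1.06) lie farthest right.

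The supply of acetyl-CoA held the largest change at high expression. Acly (chr11:100367179-100418826, GRCm39, minus strand), which cleaves citrate into acetyl-CoA in the cytosol, was at 861, 1828 and 1140 CPM in control replicates 1, 2 and 3, at 189, 213 and 128 CPM in inflamed replicates and at 280, 617 and 187 CPM in particle replicates. Every inflamed library lay below every control library, although the control libraries themselves spread widely. Acly fell 7.21-fold (log2 fold change -2.85, SE 0.458, adjusted p = 0.000964), and it was called under all 19 other settings tried. Acss2, which makes acetyl-CoA from acetate, was at 27.4, 28.3 and 27.7 CPM in control, 11.4, 15.5 and 5.78 CPM in inflamed and 20.1, 21.0 and 10.7 CPM in particle islets. Inflamed and control libraries did not overlap, and Acss2 fell 2.56-fold (log2 -1.36, SE 0.352, adjusted p = 0.0111). It overlaps Ggt7 and Gss on the opposite strand, which moved by log2 changes of -2.02 (adjusted p = 0.0024) and 0.92 (adjusted p = 0.0068), so its reads are uncertain where they meet.

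Me1, cytosolic malic enzyme, which turns malate into pyruvate and yields NADPH, moved the other way. It (chr9:86463424-86578006, GRCm39, minus strand) was at 24.6, 29.4 and 26.2 CPM in control, 71.6, 61.6 and 65.6 CPM in inflamed and 77.6, 45.9 and 79.3 CPM in particle islets. Every cytokine-treated library lay above every control library, with particle replicate 2 the lowest of the 6. Me1 rose 2.48-fold in inflamed islets (log2 1.31, SE 0.223, adjusted p = 0.0013), also under all 19 other settings.

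The carboxylase and the synthase of fatty acid synthesis both fell. Acaca, acetyl-CoA carboxylase alpha, which makes malonyl-CoA, was at 30.2, 28.8 and 25.7 CPM in control, 12.1, 12.0 and 13.6 CPM in inflamed and 18.4, 21.1 and 9.33 CPM in particle islets. Inflamed libraries lay close together and well below control, a 2.25-fold fall (log2 -1.17, SE 0.276, adjusted p = 0.0069). Fasn (chr11:120696672-120715373, GRCm39, minus strand), the fatty acid synthase, was at 169.9, 205.5 and 210.4 CPM in control, 113, 126 and 72.4 CPM in inflamed and 104, 107 and 116 CPM in particle islets. All 6 cytokine-treated libraries lay below control, and Fasn fell 1.88-fold in inflamed islets (log2 -0.91, SE 0.221, adjusted p = 0.0078). Acss2, Acaca and Fasn were called lower under all 19 other settings. Elovl6, which lengthens palmitate, overlapped between the groups, at 9.66 to 12.1 CPM in control and 5.58 to 9.96 CPM in inflamed islets (adjusted p = 0.188).

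The desaturases were uneven. Scd2, a stearoyl-CoA desaturase, was at 30.2, 80.3 and 47.1 CPM in control, 24.3, 28.1 and 21.2 CPM in inflamed and 22.2, 38.8 and 21.5 CPM in particle islets. Inflamed libraries lay below control, but control replicate 2 was far above the others. Scd2 fell 2.14-fold (log2 -1.10, SE 0.346, adjusted p = 0.0268), and leaving out control replicate 2 or inflamed replicate 1 or 3 ended that call (adjusted p up to 0.116), as did library totals in place of TMM factors. Fads1, the delta-5 desaturase, was at 39.9 to 44.5 CPM in control and 24.4 to 35.0 CPM in inflamed islets, with no overlap but an adjusted p of 0.0905. Fads2, the delta-6 desaturase, and Scd1, the paralog next to Scd2 on chromosome 19, were not called (adjusted p = 0.221 and 0.688). Scd1 was at 2.85, 4.49 and 3.62 CPM in control replicate 2, inflamed replicate 3 and particle replicate 2, the libraries richest in acinar markers, and at 0.345 to 1.72 CPM in the other 6. Fads2 was likewise highest of its group in these libraries, at 17.2, 8.19 and 13.7 CPM. The part of acinar RNA in these values was not tested, and reads shared between Scd1 and Scd2 could not be assigned with certainty.

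**Figure D2:**
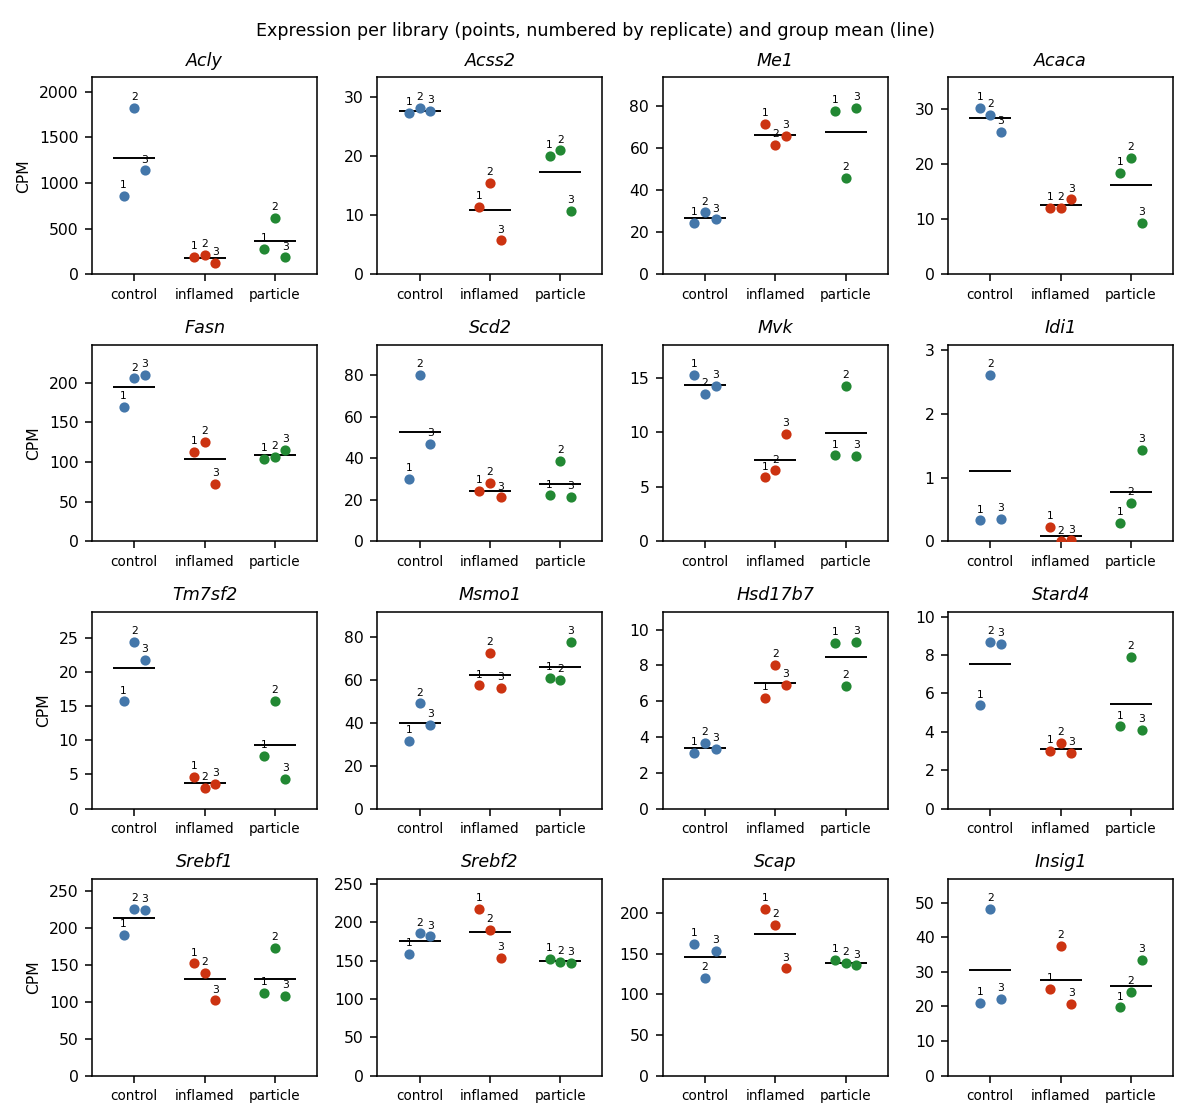
CPM of 16 members (vertical axes, each starting at 0) in the 9 libraries (points numbered by replicate; lines are group means): the 13 members called in inflamed islets plus Srebf2, Scap and Insig1. Control and inflamed points do not overlap for Acly, Tm7sf2, Acaca or Me1, whereas Srebf2, Scap and Insig1 overlap, and particle replicate 2 lies nearest to control for Acly, Tm7sf2 and Stard4.

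Among the mevalonate enzymes, 2 of 6 fell and none rose. Mvk, mevalonate kinase, was at 15.3, 13.5 and 14.2 CPM in control, 5.86, 6.51 and 9.88 CPM in inflamed and 7.88, 14.2 and 7.80 CPM in particle islets. Inflamed libraries lay below control, and Mvk fell 1.93-fold (log2 -0.95, SE 0.305, adjusted p = 0.0299). Leaving out any 1 control library, or inflamed replicate 1 or 2, ended the call (adjusted p up to 0.0967). Idi1, the isomerase that makes dimethylallyl diphosphate, rested on few reads: 8, 57 and 10 counts in control, 5, 0 and 1 in inflamed and 6, 15 and 33 in particle libraries. Its fitted log2 change of -3.79 (SE 1.36, adjusted p = 0.0451) was called in 7 of the 17 other settings in which it was tested. Leaving out control replicate 2 or 3, inflamed replicate 2 or 3, or any 1 particle library ended the call (adjusted p up to 0.289), as did both limma fits on FPKM and the replicate block. Idi1 also has 5 annotated pseudogenes, with 14, 13, 8, 0 and 0 counts beside its own 135, so its reads are uncertain. Hmgcs1, the synthase that opens the pathway, and Pmvk, Mvd and Fdps overlapped between the groups (adjusted p = 0.277 to 0.515).

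From squalene onward, the 11 enzymes did not move as a block: 1 fell, 2 rose and 8 were not called. Tm7sf2 (chr19:6112851-6118403, GRCm39, minus strand), a sterol C14 reductase, was at 15.7, 24.5 and 21.8 CPM in control, 4.70, 3.03 and 3.57 CPM in inflamed and 7.68, 15.8 and 4.40 CPM in particle islets. Inflamed libraries were far below control with no overlap. The fall was 5.5-fold (log2 -2.46, SE 0.427, adjusted p = 0.0014) and was called under all 19 other settings. Tm7sf2 overlaps Vps51 on the same strand, so reads in the shared stretch are uncertain, and Vps51 itself was not called (log2 -0.21, adjusted p = 0.488).

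The enzymes that rose act on the C4 methyl groups of the sterol ring. Hsd17b7 (chr1:169777104-169796810, GRCm39, minus strand), the 3-keto reductase of C4 demethylation, was at 3.10, 3.68 and 3.34 CPM in control, 6.18, 8.02 and 6.89 CPM in inflamed and 9.25, 6.87 and 9.33 CPM in particle islets. Every cytokine-treated library lay above control, and Hsd17b7 rose 2.09-fold in inflamed islets (log2 1.06, SE 0.274, adjusted p = 0.0108). Msmo1, the C4 methyl oxidase, was at 31.5, 49.0 and 38.9 CPM in control, 57.4, 72.6 and 56.3 CPM in inflamed and 60.7, 59.9 and 77.7 CPM in particle islets. Its 6 cytokine-treated libraries also lay above control, with a rise of 1.56-fold in inflamed islets (log2 0.64, SE 0.213, adjusted p = 0.0338). The Hsd17b7 call was lost without control replicate 1 or 3 (adjusted p up to 0.0578), and the Msmo1 call without control replicate 1 or 3 or any 1 inflamed library (up to 0.171). Msmo1 was also not called without a count filter, by limma on log2(FPKM + 1) or when only the compared libraries were fitted, so that 8 of 19 other settings did not call it. Nsdhl, the decarboxylating dehydrogenase that acts with them, lay lower without passing the test, at 8.59, 9.06 and 9.54 CPM in control and 4.84, 6.46 and 6.78 CPM in inflamed islets (log2 -0.59, adjusted p = 0.129).

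Fdft1, squalene synthase, was at 55.8, 47.8 and 49.8 CPM in control and 65.9, 64.1 and 80.4 CPM in inflamed islets (log2 0.46, adjusted p = 0.057). These groups did not overlap, but Fdft1 shares ends with Ctsb, a lysosomal protease gene on the opposite strand with far more reads, which rose by a log2 change of 2.58 (adjusted p = 0.00014), and whether counting used strand is not given. Dhcr7, which makes cholesterol from 7-dehydrocholesterol, was at 19.1, 25.9 and 27.1 CPM in control and 16.0, 17.6 and 17.4 CPM in inflamed islets (log2 -0.50, adjusted p = 0.0791). Dhcr7 passed the test only without control replicate 1 or particle replicate 2 (0.0419 at the lowest). Fdft1 passed in 3 of 19 other settings: without particle replicate 3, with a filter of 1 CPM in 3 libraries and with library totals in place of TMM factors (lowest adjusted p 0.0222). Sqle, Lss, Cyp51, Ebp and Sc5d, enzymes of the steps between squalene and 7-dehydrocholesterol, overlapped between the groups (adjusted p = 0.239 to 0.993), and Ebp passed without inflamed replicate 2 (0.0462). Cyp51 overlaps Akap9 on the opposite strand, so reads there are uncertain too.

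Of the regulators, the gene for SREBP-1 fell and the gene for SREBP-2 was not called. Srebf1 was at 191, 226 and 224 CPM in control, 152, 139 and 102 CPM in inflamed and 112, 173 and 108 CPM in particle islets. All cytokine-treated libraries lay below control. Srebf1 fell 1.63-fold in inflamed islets (log2 -0.71, SE 0.237, adjusted p = 0.0348), a call that ended when replicate 2 or 3 of either group was left out and with library totals in place of TMM factors (adjusted p up to 0.0913). Its 3′ end meets that of Rai1 on the opposite strand, and Rai1 fell too (log2 -1.56, adjusted p = 0.0017), so shared reads are uncertain. Srebf2 was at 159, 185 and 182 CPM in control, 218, 190.4 and 154 CPM in inflamed and 152, 148 and 147 CPM in particle islets. Its inflamed libraries spread around the control values (log2 0.10, SE 0.185, adjusted p = 0.704), and the sign turned without control replicate 1 (-0.024) or inflamed replicate 1 (-0.034).

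Scap, the escort of both SREBPs, was at 163, 120.3 and 154 CPM in control, 206, 186 and 132 CPM in inflamed and 143, 139 and 136 CPM in particle islets, with overlapping groups (log2 0.26, SE 0.209, adjusted p = 0.341). Insig1, their retention protein and itself a SREBP target, was at 21.1, 48.3 and 22.1 CPM in control, 25.2, 37.5 and 20.7 CPM in inflamed and 19.7, 24.1 and 33.5 CPM in particle islets. Here 1 high control library set the mean, and the change (log2 -0.14, SE 0.351, adjusted p = 0.779) turned to 0.32 without control replicate 2. Stard4, a carrier of cholesterol between membranes, was at 5.37, 8.69 and 8.57 CPM in control, 3.02, 3.44 and 2.92 CPM in inflamed and 4.28, 7.92 and 4.10 CPM in particle islets. Inflamed libraries lay below control, a 2.41-fold fall (log2 -1.27, SE 0.355, adjusted p = 0.0157), lost without control replicate 2 or 3 (up to 0.0587).

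Acly made up much of the summed level of the set. The 32 members together were at 2133, 3361 and 2567 CPM in control, 1469, 1528 and 1239 CPM in inflamed and 1503, 1939 and 1375 CPM in particle islets, and all 6 cytokine-treated libraries lay below control. Acly alone made up 40.4, 54.4 and 44.4% of the sum in control, 12.9, 13.96 and 10.3% in inflamed and 18.6, 31.8 and 13.6% in particle islets. Without Acly the sums were 1272, 1534 and 1427 CPM, then 1279, 1314 and 1111 CPM, then 1224, 1322 and 1188 CPM, and control overlapped both other groups.

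**Figure D3:**
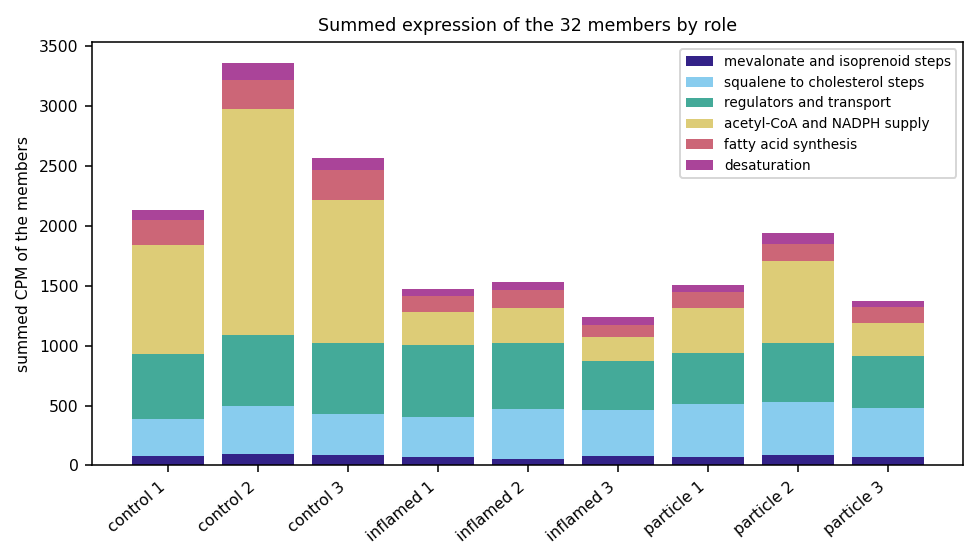
Summed CPM of the 32 members in each library (bars start at 0), stacked by role. The acetyl-CoA and NADPH supply segment, mostly Acly, is 913 to 1885 CPM in control, 199.5 to 290.3 CPM in inflamed islets and 277 to 684 CPM in particle islets, while the squalene to cholesterol segment lies between 313 and 444 CPM in all 9 libraries.

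Marker RNA of several islet cell types differed between the same groups. Of 10 beta cell markers, 9 fell and none rose in inflamed islets, and their summed level was 341799 to 360112 CPM in control, 123576 to 228971 CPM in inflamed and 87557 to 240209 CPM in particle islets. Of 6 alpha cell markers, 5 fell (7474 to 27508, 113 to 476 and 93.2 to 7942 CPM). Of 9 macrophage markers tested, 8 rose (340.0 to 401, 3275 to 3425 and 1966 to 3184 CPM). Endothelial markers fell in 5 of 6 cases (25.8 to 62.6, 4.88 to 8.32 and 6.45 to 26.4 CPM) and stellate markers in 1 of 7 (60.2 to 246, 16.4 to 57.9 and 17.0 to 81.8 CPM). None of the 8 acinar markers tested passed. These calls are for inflamed islets. In particle against control islets, 3 of 10 beta cell and 2 of 6 alpha cell markers fell and none rose. Of the 9 macrophage markers tested there, 2 rose and 1 fell (median log2 0.52). Of the 7 stellate markers 1 fell, and no endothelial or acinar marker was called. Among all genes, 11.4% were called higher and 5.92% lower in that comparison. The part of these cell types in the members' changes was not tested. Adipocytes express much of this pathway, and their 7 markers summed to 0.619 to 0.933, 2.20 to 2.65 and 0.844 to 4.36 CPM, with no overlap between control and inflamed islets. Plin1 and Cfd were at 0 counts in all control and inflamed libraries. Of the 2 adipocyte markers with enough reads to test, Retn was called higher in inflamed and in particle islets, at means of 0.0754, 1.39 and 1.09 CPM (adjusted p = 0.0123 and 0.0372), and Cidec was not called. The Retn call in particle islets was lost in 8 of 18 other settings, among them without any 1 control library, inflamed replicate 1 or particle replicate 1 or 3 (adjusted p up to 0.182).

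Particle islets were compared with control islets to ask what remained with cytokines and particles together. Of the 32 members 3 were higher and 2 lower, where 11.4% and 5.92% of all genes tested were called. The median of the members was -0.15 on the log2 scale, against 0.05 for all genes. The libraries of 7 members lay wholly below control and those of 3 wholly above, where 20.6% and 22.9% of all genes did so. The members that rose were Me1 (2.53-fold, log2 1.34, adjusted p = 0.0028), Hsd17b7 (2.51-fold, log2 1.33, adjusted p = 0.0094) and Msmo1 (1.66-fold, log2 0.73, adjusted p = 0.0388), and those that fell were Acly (3.53-fold, log2 -1.82, SE 0.440, adjusted p = 0.0193) and Fasn (1.80-fold, log2 -0.84, adjusted p = 0.0259). This comparison uses the same control libraries as the one before, so like directions in both are no separate evidence.

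The count of falls here depended on single libraries. It was 0 without control replicate 2, particle replicate 1 or particle replicate 3, 1 without control replicate 3, and 8 without particle replicate 2, where Srebf1, Scd2, Acaca, Tm7sf2 (adjusted p = 0.0042), Mvk and Fads2 joined Acly and Fasn. With all libraries these 6 had adjusted p of 0.0605 to 0.293, among them Srebf1 (log2 -0.71, adjusted p = 0.0605), Acaca (log2 -0.80, 0.067), Tm7sf2 (log2 -1.15, 0.0737) and Scd2 (log2 -0.93, 0.0837). Srebf1, Acaca, Tm7sf2 and Scd2 were also called by DESeq2, Srebf1 without inflamed replicate 3 and Scd2 without control replicate 1. Only 1 member was called higher without control replicate 3. The Msmo1 call was lost without control replicate 1 or 3, inflamed replicate 1 or 3, or particle replicate 1 or 3 (up to 0.170), and also with RLE factors, without a count filter and in both limma fits, which makes 10 of 19 other settings. Library totals ended the Fasn call (0.121). Srebf1 was called in 7 of 19 other settings. The Hsd17b7 call was lost without control replicate 3 (0.0597). Acss2, Fads1 and Srebf2 lay wholly below control without passing the test (log2 -0.69, -0.44 and -0.23).

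**Figure D4:**
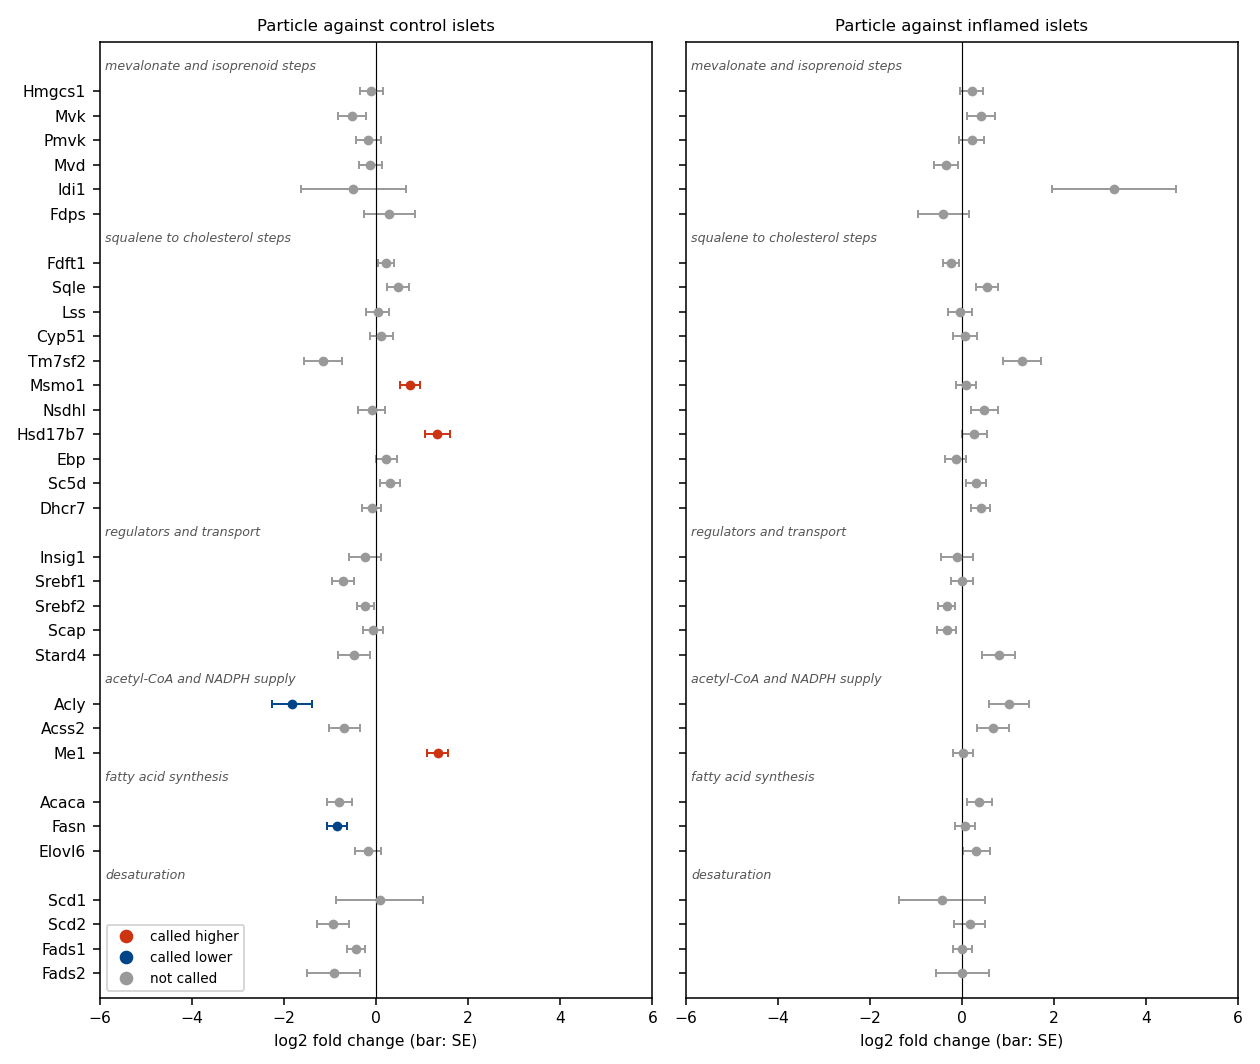
Fitted log2 fold change of each member in particle against control islets (left) and in particle against inflamed islets (right), on the same axis, with bars for the SE of the fit (3 libraries a group). In the left panel 5 members are coloured as called; in the right panel all 32 are grey, 22 above 0 and 10 below.

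Particle islets were set against inflamed islets to ask what the particles changed on top of the cytokines. No member passed the test, and neither did any of the 17276 genes by edgeR (0% called). At an unadjusted p under 0.05 stood 5 members (Tm7sf2, Idi1, Acly, Stard4 and Sqle) and 2603 genes (15.1%). DESeq2 called 487 genes higher and 296 lower, with 0 members in either direction. The median of the members was 0.13, against 0.04 for all genes, and 22 of 32 had a fitted change above 0, as had 53.0% of all genes. Idi1, Dhcr7 and Stard4 lay wholly above the inflamed libraries and Srebf2 wholly below, where 8.87% and 6.82% of all genes did so.

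The smallest adjusted p was that of Tm7sf2, whose inflamed mean was 3.76 ± 0.852 CPM and particle mean 9.30 ± 5.89 CPM (SD, n = 3 each; 2.48-fold, log2 1.31, SE 0.416, adjusted p = 0.194), and it passed only without particle replicate 3 (0.0314). Acly was at 361 ± 226 CPM against 177 ± 43.9 CPM (2.04-fold, log2 1.03, SE 0.432, adjusted p = 0.291). The remaining members at an unadjusted p under 0.05 were Idi1 (log2 3.30, adjusted p = 0.280), Stard4 (log2 0.80, 0.316) and Sqle, squalene epoxidase, at 167, 147 and 118 CPM in particle against 72.6, 125 and 98.8 CPM in inflamed islets (log2 0.55, 0.317). Dhcr7 was at 19.4, 27.1 and 21.1 CPM in particle islets, all above the inflamed values given earlier (log2 0.41, 0.397). Srebf2 showed the reverse order (log2 -0.33, 0.440). Srebf1 had the same mean in both groups, 131 CPM.

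In 8 of the 10 members that fell in inflamed islets, particle replicate 2 was the highest of the particle libraries. Over all members, particle replicate 2 was the highest of its group in 19 of 32 and particle replicate 3 the lowest in 17. Control replicate 2 was the highest control library in 21. Such counts were made for the members only, so they do not show whether these orders are particular to the members. Particle replicate 2 also had the most beta cell (240209 CPM), alpha cell (7942 CPM), acinar (3200 CPM) and endothelial (26.4 CPM) marker RNA of the particle libraries, and control replicate 2 the most acinar (1349 CPM) and endothelial (62.6 CPM) marker RNA of the controls. Control replicate 2 had the least beta cell marker RNA of the controls by CPM, at 341799 CPM. Its insulin genes nevertheless held the highest share of counts, 29.2% against 28.8% and 28.5% in control replicates 1 and 3. The beta cell order of the controls is therefore not resolved. For alpha cell markers control replicate 2 lay between the others, at 14606 CPM. Whether RNA of these cell types bears on the members' levels in these libraries was not tested.

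The genes around the set were followed in 5 lists. Of 9 genes of sterol sensing and SREBP processing, 2 rose and 2 fell in inflamed islets (median 0.08, against 0.05 for all genes). Mbtps1, the site-1 protease that cuts SREBPs in the Golgi, fell from 114 ± 16.1 to 40.6 ± 8.75 CPM (SD, n = 3; log2 -1.49, adjusted p = 0.0010), and Rnf145, a sterol-responsive ubiquitin ligase, fell from 71.6 ± 13.4 to 37.7 ± 11.6 CPM (log2 -0.93, adjusted p = 0.0121; 0.0547 with library totals in place of TMM factors). Erlin1, a membrane protein of the endoplasmic reticulum that binds cholesterol, rose from 16.0 ± 1.24 to 30.0 ± 5.53 CPM (log2 0.91, adjusted p = 0.0061). Mbtps2, the site-2 protease that makes the next cut, was the other gene that rose.

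Of 13 genes of the isoprenoid and ketone branch, 3 rose and 4 fell (median -0.10). Acat1, the mitochondrial acetoacetyl-CoA thiolase, fell from 110.4 ± 5.90 to 26.2 ± 6.61 CPM (log2 -2.08, adjusted p = 0.000335), Pdss2, of ubiquinone side chain synthesis, fell from 8.43 ± 0.459 to 2.64 ± 0.495 CPM (log2 -1.68, adjusted p = 0.0015), and Nus1, of dolichol synthesis, rose from 62.2 ± 6.81 to 169 ± 6.35 CPM (log2 1.44, adjusted p = 0.0007).

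Of 20 genes of sterol transport, storage and efflux, 6 rose and 2 fell (median 0.41). Cyp7b1, the oxysterol 7-alpha-hydroxylase, rose from 4.40 ± 0.0822 to 20.6 ± 3.77 CPM (log2 2.23, adjusted p = 0.000335), Lipa, lysosomal acid lipase, rose from 12.5 ± 4.76 to 55.6 ± 13.5 CPM (log2 2.16, adjusted p = 0.0014), and Vldlr, a lipoprotein receptor, fell from 60.5 ± 2.91 to 27.2 ± 3.55 CPM (log2 -1.15, adjusted p = 0.000636). Macrophages also express several genes of this list, and their markers rose in the same libraries as given above. The part of macrophage RNA in the changes of this list was not tested.

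Of 24 genes of fatty acid elongation, activation and triglyceride synthesis, 10 rose and 5 fell (median 0.13). Plin2, the coat protein of lipid droplets, rose from 39.1 ± 1.09 to 381 ± 78.4 CPM (log2 3.28, adjusted p = 2.52e-05) and Elovl7, a fatty acid elongase, from 3.14 ± 0.237 to 39.7 ± 3.41 CPM (log2 3.66, adjusted p = 1.56e-05). Mlxipl, which codes for ChREBP, the glucose-responsive activator of fatty acid synthesis genes, fell from 681 ± 28.7 to 83.0 ± 26.1 CPM (log2 -3.04, adjusted p = 0.000329). Of 18 genes of fatty acid oxidation tested out of 19, 2 rose and 3 fell (median -0.05). Hadh fell from 640 ± 49.4 to 84.1 ± 16.7 CPM (log2 -2.93, adjusted p = 0.000779) and Acadm from 18.5 ± 1.85 to 5.76 ± 0.676 CPM (log2 -1.69, adjusted p = 0.000676), both dehydrogenases of beta-oxidation, while Eci1, an isomerase for unsaturated chains, rose from 28.5 ± 5.82 to 56.5 ± 7.44 CPM (log2 0.99, adjusted p = 0.0092). The shares to read these counts against are again 20.7% higher and 19.0% lower among all genes.

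**Figure D5:**
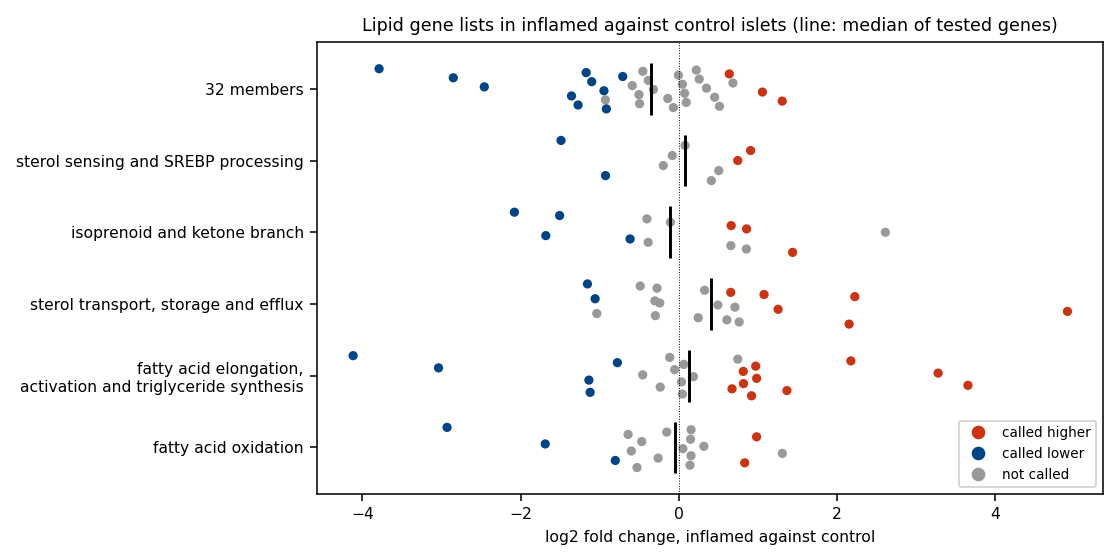
Fitted log2 fold change in inflamed against control islets for the tested genes of the 32 members and of 5 further lipid lists (1 point a gene; black bars are medians; red and blue mark calls, grey none). The members' median (-0.35) is the lowest of the 6 and that of sterol transport, storage and efflux (0.41) the highest, and each group holds calls in both directions.

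In particle against control islets, where 11.4% of all genes were called higher and 5.92% lower, 1 of 9 tested genes of sterol sensing and SREBP processing rose and 2 fell. For the isoprenoid and ketone branch 2 of 13 rose and 0 fell, and for sterol transport, storage and efflux 4 of 20 rose and 0 fell. For elongation, activation and triglyceride synthesis 6 of 24 rose and 1 fell, and for oxidation 0 of 18 rose and 1 fell. In particle against inflamed islets no gene of any of the 5 lists was called by the main edgeR fit. Of the list genes given with values above, DESeq2 called Acat1, Pdss2, Nus1, Plin2, Hadh, Acadm and Vldlr. All of these but Vldlr were also called without particle replicate 3, and Elovl7 only without that library. Mbtps1, Rnf145, Erlin1, Cyp7b1, Lipa, Mlxipl and Eci1 were called in none of the 19 other settings. The main edgeR fit gave the adjusted p that follow. Plin2 stood at 177 ± 62.5 CPM, Mlxipl at 153 ± 80.3 CPM and Hadh at 230 ± 159 CPM in particle islets, all between the control and inflamed means, with adjusted p of 0.132, 0.297 and 0.174 against inflamed islets.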

How the data were processed

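Total RNA of the 9 islet libraries had been extracted with a column kit and sequenced on Illumina libraries, per the labels. The authors' deposited counts are whole reads per gene, not normalized; HTSeq, DESeq2 and build GRCm39 are named in the submitters' processing notes. In the authors' deposited FPKM, each value is the count over the gene's length and over a library constant, which was 0.860 to 1.19 of that library's total count. The sources used here do not give strand use in counting, tool versions or the origin of replicates. The names of the control columns hold only the tissue, and these columns were taken as control because the other 6 name their group.

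The test was edgeR 4.0.16 (R 4.3.3) on genes passing filterByExpr (smallest count 10; 17276 genes), with TMM factors, a quasi-likelihood fit of group over all 9 libraries with robust dispersions, and Benjamini-Hochberg adjustment over all tested genes, called at 0.05. CPM use TMM-scaled totals. SE is the log2 fold change divided by the root of the F statistic. No pair of replicates agreed within counting noise. Total counts of 17832949 to 55865759 limit the rarest members (Idi1, Fdps, Scd1). Depth was not the only limit. Genes with any count numbered 18953 and 18348 in inflamed replicates 2 and 3, and 21303 to 23651 in the other libraries. Inflamed replicate 3 was nevertheless the deepest library. The 0 and 1 counts of Idi1 came from these inflamed replicates, and the cause of the lower detection was not tested.

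The members, roles, 5 pathway lists and 7 marker lists were chosen with earlier results of these data known. The values of 1 marker gene are not reported here. Every member called in inflamed or particle against control islets, and Srebf1, Srebf2, Scap and Insig1, are given in full, and each pathway list is shown by the up to 3 genes with the smallest adjusted p in inflamed against control islets. Other genes named were chosen after their values were seen. Promoter windows came from RefSeq (GRCm38.p6), a build different from that of the gene positions. Alternatives were RLE factors, library totals, scaling without the 20 most abundant and the mitochondrial genes, DESeq2 1.42.0, no filter, a filter of 1 CPM in 3 or more libraries, limma-trend (limma 3.58.1) on log2(FPKM + 1) or log2(FPKM + 0.1), only the compared libraries, a replicate block and leaving out each library in turn. The procedure was run on simulated counts with planted changes. Genes were drawn independently there, so shifts shared by many genes of a library were not covered.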

Additional observations from a re-analysis of the deposited data

How the results depend on the processing

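Across 61 reported gene fold changes and 19 other settings, 1060 of 1154 values kept direction and side of the threshold, 64 lost a call, 25 gained one and 5 changed sign. Those 5 were Insig1 in inflamed islets with library totals (0.049) or without control replicate 2 (0.32; range -0.42 to 0.32 over libraries left out), Srebf2 in inflamed islets without control replicate 1 (-0.024) or inflamed replicate 1 (-0.034; range -0.034 to 0.17), and Srebf2 in particle against control islets with library totals (0.039). Library totals moved the median of all genes to 0.22, 0.32 and 0.13 (inflamed against control, particle against control, particle against inflamed), and that of the members to -0.19, 0.11 and 0.20. In particle against control islets, where 1961 genes were called higher and 1022 lower, library totals gave 3193 and 597, DESeq2 2345 and 1940, limma on log2(FPKM + 1) 1505 and 2017, and on log2(FPKM + 0.1) 1658 and 1635. Members called lower there numbered 1 with library totals, 5 without a count filter, 6 by DESeq2, 4 by both limma fits, 3 with RLE factors and 3 with the replicate block. Particle against inflamed islets gave 1 gene higher with library totals, 120 higher and 101 lower without a count filter, 487 and 296 by DESeq2, 1 and 15, then 5 and 9, by the limma fits, but no member. The cause of these differences was not tested. Over the libraries left out, inflamed against control gave 2278 to 3786 genes higher, 2401 to 3588 lower, 1 to 4 members higher and 5 to 10 lower. Particle against control gave 887 to 2424, 224 to 2121, 1 to 3 and 0 to 8, with the highest count of falls without particle replicate 2. Particle against inflamed gave 0 to 636 genes higher and 0 to 306 lower, with the highest without particle replicate 3, and 0 to 1 members higher. Deviations of same-numbered libraries from their group means correlated at -0.22 to 0.15, and those of other libraries at -0.34 to 0.32. With 3 libraries a group, these ranges cannot show whether same-numbered libraries shared an animal or preparation. With the replicate block, 3152 genes rose and 2964 fell in inflamed islets, with 3 and 9 members, 1628 and 970 in particle against control islets, with 3 and 3 members, and 0 and 0 in particle against inflamed islets.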
